A study of Mus musculus with 30 samples.

Results

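De novo lipogenesis, the pathway by which the liver builds fatty acids from sugar-derived acetyl-CoA, was followed through 10 genes in mouse livers that lacked the transcription factor C/EBPα (Cebpa) in hepatocytes. The 10 genes were listed by name as the core of the pathway: Srebf1 and Mlxipl, which encode the transcription factors SREBP1 and ChREBP; Acly, Me1, Acaca, Acacb, Fasn, Elovl6 and Scd1, which encode enzymes; and Thrsp, which encodes the lipogenic cofactor Spot 14. All 10 were present among the 55450 genes of the count table and all 10 passed the filter on low counts in every comparison, so none was lost. In GRCm38 (GENCODE M21), 4 of them lie on chromosome 11, Srebf1 at chr11:60199089-60222581, Acaca at chr11:84129672-84401651, Acly at chr11:100476353-100528000 and Fasn at chr11:120805846-120824547. Acacb (chr5:114146535-114250761) and Mlxipl (chr5:135089890-135138382) lie on chromosome 5, and Elovl6 is at chr3:129532355-129638495, Thrsp at chr7:97412938-97417730, Me1 at chr9:86581371-86695953 and Scd1 at chr19:44394455-44407879. Each of the 30 libraries was stranded poly(A) RNA-seq of the whole liver of 1 male mouse on a C57BL/6N background, 5 mice in each of 6 groups.

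Every mouse carried loxP-flanked Cebpa alleles (Cebpa fl/fl) and ate a diet rich in fat, cholesterol and fructose (HFCFD), which induces metabolic dysfunction-associated steatohepatitis (MASH). The HFCFD2W experiment compared Cre-negative Cebpa fl/fl mice with Cebpa ΔHep mice, in which albumin-Cre removes Cebpa from hepatocytes constitutively, after 2 weeks of diet. The HFCFD8W+T10D experiment compared Cebpa fl/fl mice with Cebpa ΔHep,ERT2 mice, in which albumin-driven ERT2-Cre acts only on tamoxifen, at 8 weeks of diet with 10 days of tamoxifen. The labels do not say whether those 8 weeks include the 10 days. The HFCFD12W+T10W experiment used the same inducible strain at 12 weeks of diet followed by 10 weeks of diet with tamoxifen, 22 weeks of diet in all. Both genotypes of the induced experiments carried the tamoxifen label. No group ate chow, and the ages of the mice were not given in the sources used here. The submitters described the experiments as separate batches, so between experiments the Cre strain, diet time, tamoxifen and batch cannot be told apart, whereas each knockout was compared with its own Cebpa fl/fl group.

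SREBP1 is the insulin-responsive and ChREBP the carbohydrate-responsive activator of hepatic lipogenesis, and many of the enzyme genes respond to both. ATP-citrate lyase (Acly) releases cytosolic acetyl-CoA from citrate, malic enzyme (Me1) supplies NADPH, acetyl-CoA carboxylases 1 and 2 (Acaca and Acacb) make malonyl-CoA, fatty acid synthase (Fasn) makes palmitate, ELOVL6 lengthens it, and stearoyl-CoA desaturase 1 (Scd1) introduces a double bond. The malonyl-CoA of Acaca feeds synthesis, while that of Acacb, at the mitochondrial surface, restrains fatty acid oxidation.

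Library totals ran from 7996128 to 10257366 assigned counts, and no pair of libraries within a group agreed to within sampling noise. Levels below are CPM (counts scaled to a library of fixed size) adjusted over all 30 libraries by trimmed mean of M-values (TMM), a scaling that sets the typical gene to no change. Differences are log2 fold changes with their standard errors (SE) from the quasi-likelihood test of edgeR. Adjusted p-values (Benjamini-Hochberg) cover every gene tested, and a gene "passed" at an adjusted p under 0.05. The targeted gene followed the labels in every mouse. Cebpa was 149.3 to 193.5 CPM in Cebpa fl/fl and 3.43 to 5.68 CPM in Cebpa ΔHep livers of HFCFD2W. It was 121.3 to 156.1 CPM against 11.1 to 25.1 CPM in HFCFD8W+T10D and 82.5 to 135.3 CPM against 18.7 to 23.8 CPM in HFCFD12W+T10W. The livers were not sorted by cell type.

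Per transcript length, in TPM, the desaturase dominated the pathway. In HFCFD2W Cebpa fl/fl livers Scd1 stood at 4764 ± 1800 TPM (SD, n = 5), Thrsp at 430.6 ± 115 TPM and Srebf1 at 194.1 ± 31.3 TPM. Fasn (108.5 ± 46.5 TPM), Me1 (76.6 ± 33.5 TPM) and Acly (61.3 ± 12.7 TPM) followed, with ranges that overlapped between neighbours. Acaca (21.02 ± 4.72 TPM), Mlxipl (15.8 ± 3.16 TPM), Elovl6 (14.8 ± 3.48 TPM) and Acacb (7.65 ± 2.49 TPM) were the lowest. The levels of Mlxipl and Elovl6 did not differ beyond their spread. Part of the Scd1 and Acaca counts was estimated, since their expected counts were fractional in 30 of 30 libraries, and those of Me1 in 29 of 30.

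The 4 windows below are shown because Srebf1 and Mlxipl are regulators that passed as lower in some knockout groups, while Fasn is a target that passed as lower in none. Each is the RefSeq promoter sequence (GRCm38.p6) of the 250 bases before a start site, 5′ to 3′ on the gene's strand, with capitals at matches on either strand to the CCAAT box (letters CCAAT), the E-box or a C/EBP pattern. The E-box was searched as CACGTG. The C/EBP pattern, a degenerate core of the site that C/EBP factors bind, was searched as TTNNGNAA. The first Srebf1 window, at chr11:60222582-60222831 on the minus strand, lies at the annotated gene start. The second, at chr11:60210472-60210721 on the minus strand, precedes a start 12110 bases further into the gene. The Mlxipl window shown, at the annotated gene start, is chr5:135089640-135089889 on the plus strand and the Fasn window is chr11:120824548-120824797 on the minus strand.
Srebf1 gene start: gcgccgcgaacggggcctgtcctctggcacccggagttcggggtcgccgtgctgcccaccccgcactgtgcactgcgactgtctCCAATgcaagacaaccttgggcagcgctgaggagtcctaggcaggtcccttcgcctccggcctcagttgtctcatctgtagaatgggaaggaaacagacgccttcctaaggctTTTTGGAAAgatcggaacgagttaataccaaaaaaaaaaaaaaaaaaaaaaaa
Srebf1 inner start: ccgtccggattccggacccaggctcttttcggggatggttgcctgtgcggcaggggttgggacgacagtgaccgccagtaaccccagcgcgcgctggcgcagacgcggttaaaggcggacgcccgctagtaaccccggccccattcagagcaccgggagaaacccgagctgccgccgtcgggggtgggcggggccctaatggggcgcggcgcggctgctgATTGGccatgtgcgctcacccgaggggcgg
Mlxipl: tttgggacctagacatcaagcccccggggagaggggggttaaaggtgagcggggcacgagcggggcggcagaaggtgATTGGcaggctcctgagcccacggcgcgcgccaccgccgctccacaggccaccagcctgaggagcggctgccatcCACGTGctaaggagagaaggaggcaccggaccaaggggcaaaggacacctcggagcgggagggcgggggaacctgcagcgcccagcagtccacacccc
Fasn: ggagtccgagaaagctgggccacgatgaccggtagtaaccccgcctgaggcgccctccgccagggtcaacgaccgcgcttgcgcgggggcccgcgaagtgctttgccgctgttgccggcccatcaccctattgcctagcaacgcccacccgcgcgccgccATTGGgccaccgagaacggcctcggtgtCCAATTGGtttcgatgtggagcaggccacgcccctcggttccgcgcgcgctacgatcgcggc

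The Fasn window held 3 CCAAT-box matches, at -90, -62 and -59 from the start, the last pair overlapping. The Srebf1 gene-start window held a CCAAT box at -166 and overlapping C/EBP-pattern matches at -53 and -52, the inner Srebf1 window a CCAAT box at -30, and the Mlxipl window a CCAAT box at -173 and an E-box at -98. RefSeq windows of 300 bases, 250 before to 50 after a start, were found for 9 of the 10 genes, 13 windows in all. The CCAAT box was present in 8 of the 13 windows, from 7 genes, against 37.4% of all 32851 promoter windows. The C/EBP pattern was present in 4 of the 13, from Srebf1, Mlxipl and Acaca, against 40.7% of all windows. The Mlxipl matches, at -222 and -221, lay in another Mlxipl window, chr5:135106641-135106940, which is not printed. Another Srebf1 window, chr11:60220578-60220877, held a match at 39 and is not printed either. The E-box was in 1 of 13 against 7.15% of all, and the sterol response element, searched only as TCACCCCAC, in 0 of 13 against 0.551%. With so small a share and 1 exact spelling, 0 of 13 cannot show that such elements are lacking. The GC box (GGGCGG) was in 5 of 13, from 4 genes, against 35.7%. These are matches of letters in a short window, not binding sites.

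**Figure D1:**
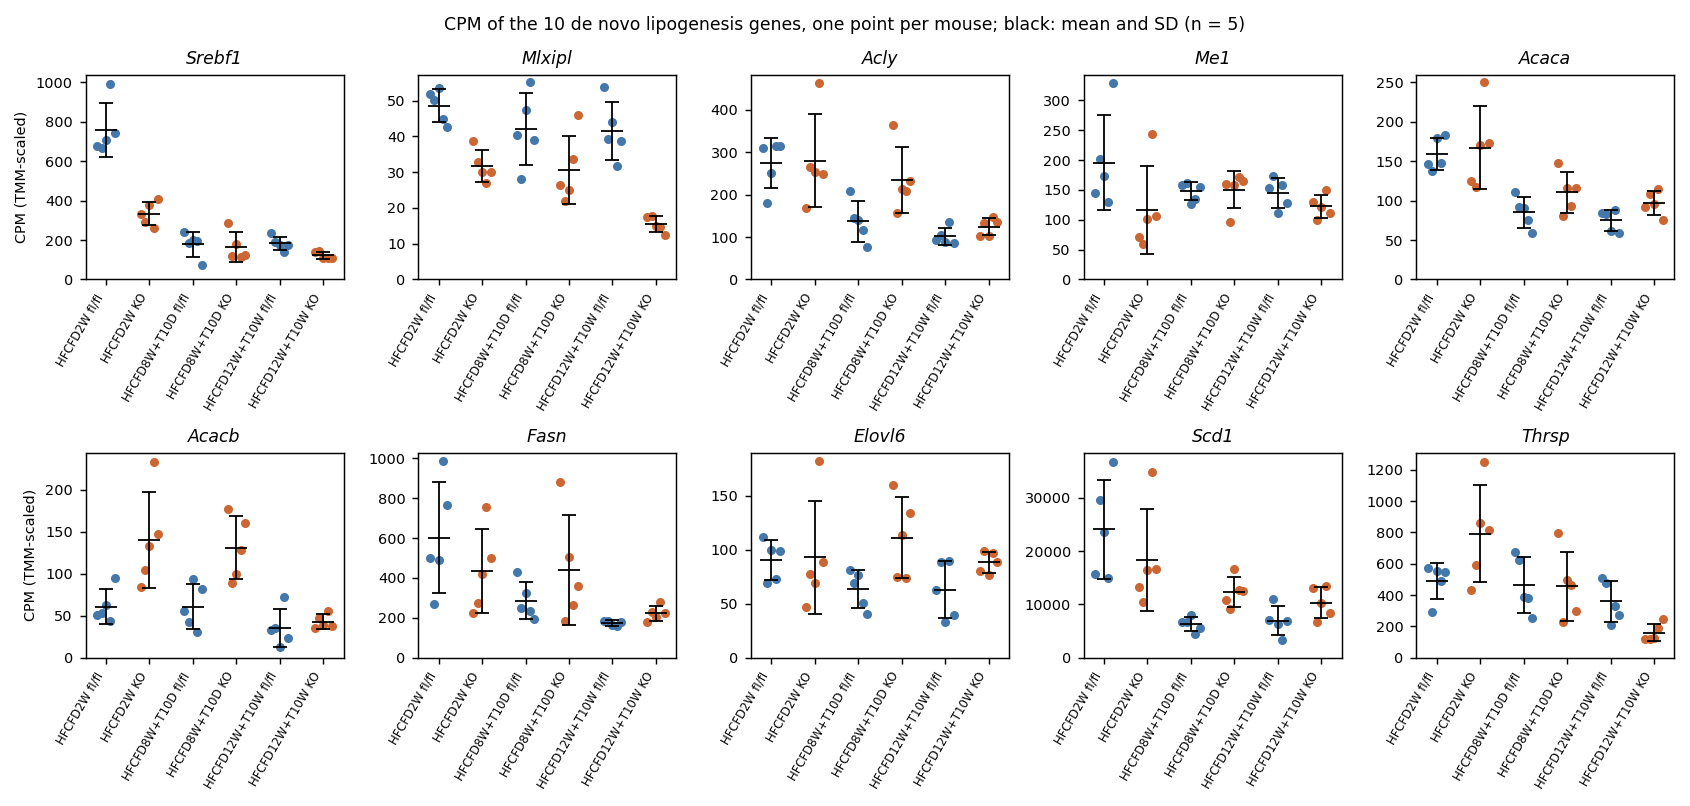
CPM (TMM-scaled, linear axes from 0) of each of the 10 genes in the 6 groups, with 1 point per mouse and black bars for mean and SD (n = 5); blue marks Cebpa fl/fl and orange knockout (KO). Srebf1 separated the genotypes in HFCFD2W, Mlxipl in HFCFD2W and HFCFD12W+T10W, and Scd1 in HFCFD8W+T10D, without overlap between the mice.

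After 2 weeks of diet with constitutive deletion, both regulators fell and most enzyme genes did not pass in either direction. Srebf1 fell by 1.18 ± 0.135 (SE) on the log2 scale, Mlxipl fell by 0.61 ± 0.0996, and among the other 8 genes only Acacb passed, in the opposite direction. Srebf1 was 676.9, 665.8, 708.8, 993.3 and 741.5 CPM in the 5 Cebpa fl/fl mice and 332.0, 293.6, 375.2, 259.4 and 406.1 CPM in the 5 Cebpa ΔHep mice. The highest knockout lay well under the lowest control, a fold of 0.441 (log2 fold change -1.18, SE 0.135, adjusted p = 0.000106). Mlxipl was 51.8, 50.2, 53.5, 44.8 and 42.6 CPM in Cebpa fl/fl and 38.7, 32.9, 30.005, 27.1 and 30.1 CPM in Cebpa ΔHep livers. Again no mouse of one genotype reached the other (log2 fold change -0.61, SE 0.0996, adjusted p = 0.00126). Over all 11068 genes tested, every knockout was lower than every control for 6.13%.

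Acacb, the carboxylase of the mitochondrial surface, rose 2.31-fold. It was 50.9, 52.7, 62.6, 43.2 and 95.2 CPM in Cebpa fl/fl and 84.6, 104.5, 132.7, 232.8 and 147.6 CPM in Cebpa ΔHep livers. The groups overlapped only through the highest control and the lowest knockout (log2 fold change 1.21, SE 0.265, adjusted p = 0.0084). In all, 1 of 10 genes was higher and 2 of 10 were lower, where 8.6% of all genes tested were higher and 8.09% lower. With a fold over 2 as well, 1 was higher (Acacb) and 1 lower (Srebf1), against 1.69% and 1.38% of all genes. The median log2 fold change of the 10 genes was -0.18, against 0.01 over all genes.

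The 7 that did not pass had log2 fold changes from -0.74 to 0.69. Thrsp (0.69, SE 0.251, adjusted p = 0.0778) and Me1 (-0.74, SE 0.354, adjusted p = 0.172) were the nearest to passing. Fasn (-0.47, SE 0.350), Scd1 (-0.39, SE 0.321), Acaca (0.08, SE 0.179), Acly (0.04, SE 0.229) and Elovl6 (0.04, SE 0.290) had adjusted p-values from 0.399 to 0.949. One knockout mouse widened the spread. Cebpa ΔHep replicate 5 was the highest of its group for all 8 enzyme and Thrsp genes and the lowest for both Srebf1 and Mlxipl. Its Scd1 was 34843 CPM where its group mates had 10426 to 16618 CPM, and its Me1 was 243.9 CPM against 59.9 to 106.6 CPM. Without it, Me1 passed as lower (log2 fold change -1.21, adjusted p = 0.0096), while Srebf1, Mlxipl and Acacb kept their calls. In that fit Fasn and Scd1 (-0.77 each), Elovl6 (-0.37), Acly (-0.23) and Acaca (-0.12) lay below 0 and Thrsp (0.46) above. None of these passed.

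Hormone- and time-sensitive genes differed in the same mice. Of 8 fasting genes tested, 5 passed as higher and 0 as lower. Igfbp1, an insulin-repressed binding protein, was 5.79 to 52.2 CPM in Cebpa fl/fl and 103.7 to 317.8 CPM in Cebpa ΔHep livers (log2 fold change 3.39, SE 0.484, adjusted p = 0.000487). Pck1 (1.35), Tat (1.52) and Angptl4 (1.12) also rose, where 8.6% of all genes tested passed as higher. Of 10 clock genes tested 3 were lower and 0 higher, where 8.09% of all genes passed as lower. Nr1d1, which encodes the repressor REV-ERBα, was 34.6 to 73.8 CPM in Cebpa fl/fl and 12.6 to 22.02 CPM in Cebpa ΔHep livers (log2 fold change -1.35, adjusted p = 0.000962). Feeding state and time of collection were not given in the sources used here, and the part of either in the regulator levels was not tested.

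In the wider pathway of HFCFD2W, 4 of 20 other lipogenic regulators were lower and 1 higher. Mid1ip1, the Thrsp-related activator of acetyl-CoA carboxylase, fell from 69.7 ± 15.05 to 19.8 ± 4.66 CPM (SD, n = 5) without overlap (log2 fold change -1.82, SE 0.170, adjusted p = 2.24e-05). Elovl5, an elongase of polyunsaturated fatty acids, fell by 1.201, while Lpin1, a phosphatidate phosphatase of triglyceride assembly that also coactivates fasting genes, rose 2.12 on the log2 scale. Of 8 cholesterol synthesis genes, which are targets of SREBP2, 5 passed as higher and 0 as lower. The other lists had 1 higher and 1 lower of 11 genes of citrate, acetyl-CoA and NADPH supply, 0 and 3 of 9 ChREBP targets, 2 and 1 of 10 elongases and desaturases, and 2 and 2 of 10 triglyceride genes. Over all genes tested in HFCFD2W, 8.6% passed as higher and 8.09% as lower, so several of these list counts lie near those shares.

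At 8 weeks of diet with 10 days of tamoxifen, 3 enzyme genes rose, no gene of the 10 passed as lower, and Srebf1 did not differ detectably. Scd1 rose 1.97-fold, Acacb 2.17-fold and Elovl6 1.77-fold. Scd1 was 6778, 6758, 8103, 4509 and 5574 CPM in Cebpa fl/fl and 10864, 9064, 16669, 12645 and 12571 CPM in Cebpa ΔHep,ERT2 livers. Every knockout was above every control (log2 fold change 0.98, SE 0.222, adjusted p = 0.0106), which was the case for 6.01% of the 11992 genes tested.

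Acacb was 55.5, 42.3, 93.9, 30.3 and 82.25 CPM in Cebpa fl/fl and 176.8, 89.2, 99.99, 128.1 and 159.9 CPM in Cebpa ΔHep,ERT2 livers (log2 fold change 1.11, SE 0.284, adjusted p = 0.0179). The ranges overlapped through 1 mouse of each group. Elovl6 was 81.2, 68.8, 76.9, 50.4 and 40.6 CPM against 159.8, 75.1, 113.3, 74.0 and 133.8 CPM (log2 fold change 0.82, SE 0.238, adjusted p = 0.0314). The lowest knockouts lay inside the control range. The Elovl6 call was the least stable of the 3, since leaving out any of 6 of the 10 mice ended it (Cebpa fl/fl replicates 2, 4 and 5, and knockout replicates 1, 3 and 5, adjusted p of up to 0.0869).

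The other 7 genes did not pass. Acly was 76.2 to 208.9 CPM in Cebpa fl/fl and 156.0 to 363.5 CPM in knockout livers, at the edge of the threshold (log2 fold change 0.78, SE 0.254, adjusted p = 0.0513), and it passed under each of the 6 other scalings, filters or models tried. Fasn was 195.7 to 427.6 CPM against 183.6 to 882.8 CPM (log2 fold change 0.63, SE 0.358, adjusted p = 0.259), with the largest SE of the 10. Acaca had 0.39 (SE 0.183), Me1 0.04 (SE 0.147) and Thrsp -0.01 (SE 0.328) on the log2 scale. Srebf1 was 241.3, 182.7, 201.1, 197.2 and 72.4 CPM in Cebpa fl/fl and 288.1, 117.0, 177.9, 113.0 and 125.7 CPM in Cebpa ΔHep,ERT2 livers, largely overlapping (log2 fold change -0.11, SE 0.311, adjusted p = 0.854). Mlxipl was 40.3, 28.2, 47.4, 55.2 and 39.1 CPM against 26.4, 22.04, 24.9, 33.8 and 46.0 CPM (log2 fold change -0.45, SE 0.208, adjusted p = 0.163), and it passed as lower in the model of all 30 libraries (adjusted p = 0.0414) and without knockout replicate 5 (adjusted p = 0.0263). The count of 3 higher and 0 lower of 10 (4 and 0 at an unadjusted p under 0.05 and in DESeq2) stood against 10.2% and 6.83% of all genes tested. With a fold over 2 it was 1 (Acacb) and 0, against 4.09% and 2.01%, and the median log2 fold change was 0.51 against 0.01 over all genes.

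Several enzymes beside the pathway moved in the same livers. G6pdx and Pgd, the NADPH-forming dehydrogenases of the pentose phosphate pathway, rose 1.47 and 1.12 on the log2 scale without overlap, G6pdx from 5.66 ± 1.63 to 15.5 ± 2.21 CPM (SD, n = 5). Fads1 and Fads2, the desaturases of polyunsaturated fatty acids, rose 1.43 and 1.27, again without overlap. Elovl3, an elongase of very long chains, fell from 24.9 to 150.4 CPM in Cebpa fl/fl to 0.164 to 5.58 CPM in knockout livers (log2 fold change -5.56, SE 0.752, adjusted p = 0.000426). Insig2, which retains the SREBP precursors in the endoplasmic reticulum, fell from 250.1 to 666.4 CPM in Cebpa fl/fl to 69.8 to 132.0 CPM in knockout livers (log2 fold change -2.04, SE 0.277, adjusted p = 0.000426). Sqle (2.92) and Idi1 (1.31) of cholesterol synthesis rose, 2 of that list's 8 genes, and G6pc (-1.11), Lpin2 (-1.26) and Mogat1 (-1.61) fell. The Mogat1 call was lost without any of 8 of the 10 mice (adjusted p of up to 0.110).

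By list, 3 of 11 supply genes were higher and 0 lower, 5 of 10 elongases and desaturases higher and 1 lower, 0 of 11 triglyceride genes higher and 4 lower, 1 of 10 ChREBP targets higher and 1 lower, and 0 of 20 other regulators higher and 3 lower. Of 8 fasting genes 0 passed in either direction in edgeR's test or DESeq2, 0 also at an unadjusted p under 0.05, and of 10 clock genes 1 was lower. Over all genes tested in HFCFD8W+T10D, 10.2% passed as higher and 6.83% as lower, so several of these list counts lie near those shares.

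After 22 weeks of diet, 10 of them with tamoxifen, the regulators and Thrsp were lower while 2 enzymes of fatty acid synthesis were higher. Mlxipl fell to a fold of 0.386, Thrsp to 0.462 and Srebf1 to 0.689. Mlxipl was 53.7, 39.2, 44.0, 31.7 and 38.7 CPM in Cebpa fl/fl and 17.5, 17.7, 15.03, 14.7 and 12.5 CPM in Cebpa ΔHep,ERT2 livers. The groups were far apart (log2 fold change -1.37, SE 0.138, adjusted p = 5.63e-06), as for the 19.5% of 12463 genes tested whose knockouts all lay under the controls.

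Thrsp was 506.3, 478.3, 206.8, 330.6 and 275.5 CPM in Cebpa fl/fl and 121.3, 119.3, 127.6, 190.2 and 246.3 CPM in Cebpa ΔHep,ERT2 livers (log2 fold change -1.12, SE 0.263, adjusted p = 0.00335). Only the highest knockout reached the control range. Srebf1 was 236.4, 188.3, 176.2, 141.8 and 172.4 CPM against 141.2, 144.6, 108.4, 108.4 and 108.5 CPM (log2 fold change -0.54, SE 0.134, adjusted p = 0.00467). The ranges met at 1 mouse of each group. The Srebf1 call rested on the scaling: on library totals, with no TMM factor, its log2 fold change was -0.17 (adjusted p = 0.293).

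Fasn was 186.1, 183.6, 163.0, 157.3 and 180.9 CPM in Cebpa fl/fl and 177.8, 227.7, 205.6, 280.3 and 225.7 CPM in Cebpa ΔHep,ERT2 livers (log2 fold change 0.40, SE 0.108, adjusted p = 0.00741). Acaca was 83.8, 82.9, 61.1, 87.5 and 59.3 CPM against 91.9, 108.4, 95.3, 114.7 and 74.9 CPM (log2 fold change 0.42, SE 0.137, adjusted p = 0.0218). The rises were 1.32-fold and 1.34-fold, and the mice of the genotypes overlapped. In the model of all 30 libraries, whose spread is shared with the more variable experiments, neither passed (adjusted p = 0.392 for Fasn and 0.0951 for Acaca), and leaving out Cebpa fl/fl replicate 3 or 5 or knockout replicate 2 or 4 also ended the Acaca call (adjusted p of up to 0.0604).

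Acly (0.33, SE 0.139), Scd1 (0.62, SE 0.271) and Elovl6 (0.54, SE 0.237) had adjusted p-values of 0.0667, 0.0736 and 0.0753. With upper quartile scaling all 3 passed as higher. Acacb (0.32, SE 0.339) was widely spread among the controls, from 12.4 to 72.8 CPM, and passed as higher without Cebpa fl/fl replicate 4 (log2 fold change 0.75, adjusted p = 0.0218), while Me1 (-0.19, SE 0.130) did not pass. In all, 2 of 10 genes were higher and 3 lower, against 27.4% and 23.8% of all genes. With a fold over 2, 0 were higher and 2 lower (Mlxipl and Thrsp), against 14.3% and 3.47%. The median log2 fold change was 0.32 against 0.01 over all genes. Scaling mattered more here than elsewhere. With library totals the median of all genes moved to 0.38, 56.6% of genes were higher and 7.72% lower, and the 10 genes split into 5 higher and 2 lower (Mlxipl and Thrsp). In HFCFD8W+T10D the same change moved the median of all genes to 0.19, with 16.9% higher and 3.19% lower and 5 of the 10 genes higher.

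**Figure D2:**
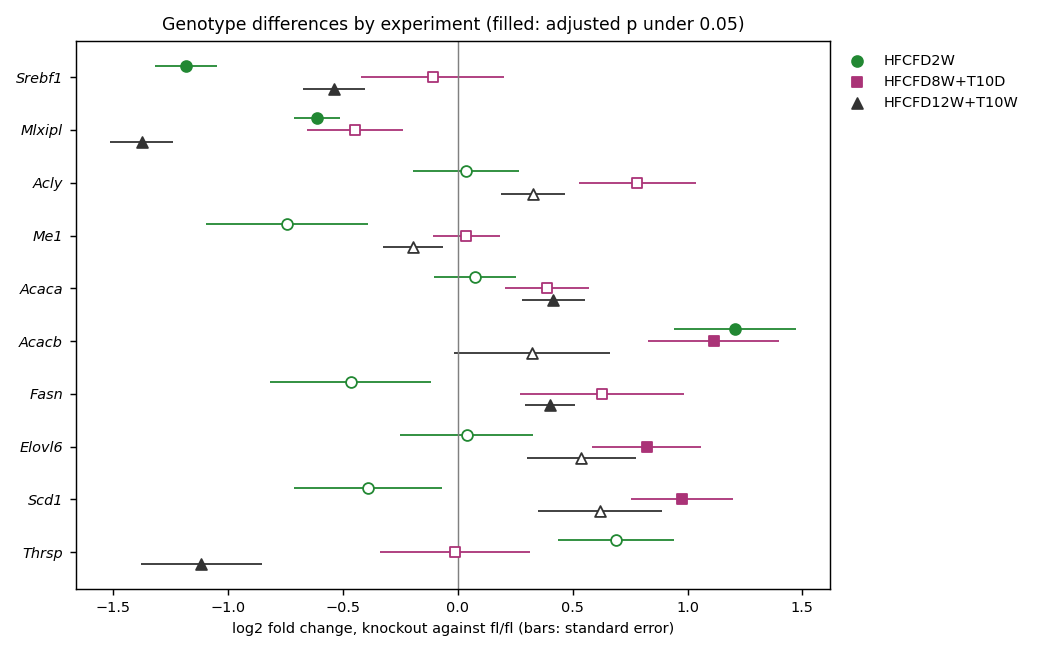
Log2 fold change of each gene, knockout against Cebpa fl/fl, in HFCFD2W (circles), HFCFD8W+T10D (squares) and HFCFD12W+T10W (triangles), with bars for SE and filled symbols for an adjusted p under 0.05. Srebf1 and Mlxipl lay below 0 in each experiment (on library totals Srebf1 was at 0.0835 in HFCFD8W+T10D), whereas Acaca, Acacb, Acly and Elovl6 lay above 0 in each, most of them with open symbols. In HFCFD2W Acaca (0.08), Acly (0.04) and Elovl6 (0.04) lay within their SE of 0. Without knockout replicate 5 they lay at -0.12, -0.23 and -0.37.

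Markers of liver cell types were read in the same libraries, and most of those that passed did so in HFCFD12W+T10W. Over all genes tested, 8.6% passed as higher and 8.09% as lower in HFCFD2W, and 10.2% and 6.83% in HFCFD8W+T10D. In HFCFD12W+T10W the shares were 27.4% and 23.8%. The summed level of 8 hepatocyte markers ran from 93987 to 117470 CPM in Cebpa fl/fl and from 52007 to 61456 CPM in Cebpa ΔHep,ERT2 livers of that experiment, 4 of the 8 passing as lower. Alb alone supplied most of that sum, at 68431 to 89505 CPM in Cebpa fl/fl and 31484 to 38090 CPM in knockout livers (log2 fold change -1.10), whereas the median log2 fold change of the 8 markers was -0.27. All 6 stellate or fibroblast markers and all 6 cholangiocyte markers passed as higher, the first list from 250.02 to 327.4 CPM in Cebpa fl/fl to 1167 to 1463 CPM in knockout livers and the second from 41.3 to 56.5 CPM to 735.6 to 1036 CPM. Spp1 made up most of the cholangiocyte sum, so that sum does not measure cholangiocytes alone. Macrophage markers were higher for 4 of 6 genes, summing to 279.6 to 795.4 CPM and 903.7 to 1101 CPM. In HFCFD8W+T10D the hepatocyte sum was 111780 to 136070 CPM in Cebpa fl/fl and 59543 to 119460 CPM in knockout livers, with 1 marker higher and 1 lower of 8. In HFCFD2W it was 111060 to 140980 CPM and 115880 to 165990 CPM, and 0 of 8 passed. Of the other lists, 3 of 6 macrophage markers were higher in HFCFD2W and 4 of 6 in HFCFD8W+T10D, stellate markers 0 and 3 of 6, and cholangiocyte markers 1 of 2 and 3 of 5 tested. The 1 of 2 in HFCFD2W was Spp1, while Sox9 did not pass (log2 fold change 0.23, adjusted p = 0.666). The study that reported these livers placed the Spp1 rise at 2 weeks of diet mainly in hepatocytes, by single-cell RNA-seq and staining. The part of these shifts in the lipogenic differences was not tested. In whole liver, fewer hepatocytes and less RNA of single marker genes, or of all genes, per hepatocyte cannot be told apart.

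Adipocytes also express Fasn, Acly and Scd1 strongly. Adipoq, Lep, Plin1 and Retn, 4 of the 6 adipocyte markers, had 0 counts in all 30 libraries. Cidea was under the low-count filter of the genotype fits, reaching 22.2 CPM in HFCFD12W+T10W Cebpa fl/fl livers and at most 1.19 CPM in any knockout. In the model of all 30 libraries it was higher in Cebpa fl/fl livers of HFCFD8W+T10D (log2 difference 5.17, SE 0.949) and HFCFD12W+T10W (4.97, SE 0.959) than of HFCFD2W, with adjusted p = 7.4e-05 and 0.00019. Cfd passed as lower in both induced knockouts, at 1.61 to 18.4 CPM in Cebpa fl/fl and 0.0912 to 0.845 CPM in knockout livers of HFCFD12W+T10W. Endothelial markers passed for 0, 1 and 2 of 5 genes in the order HFCFD2W, HFCFD8W+T10D and HFCFD12W+T10W, all lower. Lymphocyte markers were mostly under the low-count filter, with 2 of 3 tested passing as higher, Cd3g and Cd8a, in HFCFD12W+T10W.

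Beyond the 10 genes, several genes called in HFCFD8W+T10D were also called in HFCFD12W+T10W, in other mice. HFCFD12W+T10W called 27.4% of all genes tested as higher and 23.8% as lower, the shares for its list counts here and below. G6pdx (log2 fold change 1.45) and Pgd (1.04) rose, Elovl3 was 2.83 to 28.99 CPM in Cebpa fl/fl and 0 to 0.507 CPM in knockout livers (-5.91), and G6pc fell (-1.24). Sqle, squalene epoxidase, was 0.303 to 1.31 CPM in Cebpa fl/fl and 7.67 to 21.4 CPM in knockout livers (log2 fold change 4.42, SE 0.405, adjusted p = 2.86e-06). Idi1 (1.95) and Cyp51 (1.31) rose with it, in a list where 6 of 8 cholesterol genes were higher and 0 lower.

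Of the other desaturases and elongases, 6 of 11 were higher and 2 lower. Scd2, a desaturase best known from brain, rose from 9.93 ± 2.80 to 38.6 ± 4.42 CPM (SD, n = 5; log2 fold change 2.00, adjusted p = 1.3e-06), Elovl7 from 0.226 ± 0.162 to 5.01 ± 0.714 CPM and Elovl1 from 13.7 ± 1.85 to 27.5 ± 3.35 CPM. Triglyceride assembly moved the other way, 1 of 11 genes higher and 7 lower, with Gpat4, a glycerol-phosphate acyltransferase, down from 360.2 ± 20.8 to 157.2 ± 22.1 CPM. ChREBP targets were lower for 6 of 10 genes and higher for 0. Of the 20 other regulators 9 were lower and 1 higher. Trib1, a pseudokinase that restrains lipogenesis, fell from 46.3 ± 8.29 to 21.3 ± 5.28 CPM. Of 11 supply genes 3 were higher and 3 lower, of 8 fasting genes 0 higher and 6 lower, and of 11 clock genes 0 higher and 6 lower, including Cry1 (-1.30) and Ciart (-1.16).

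**Figure D3:**
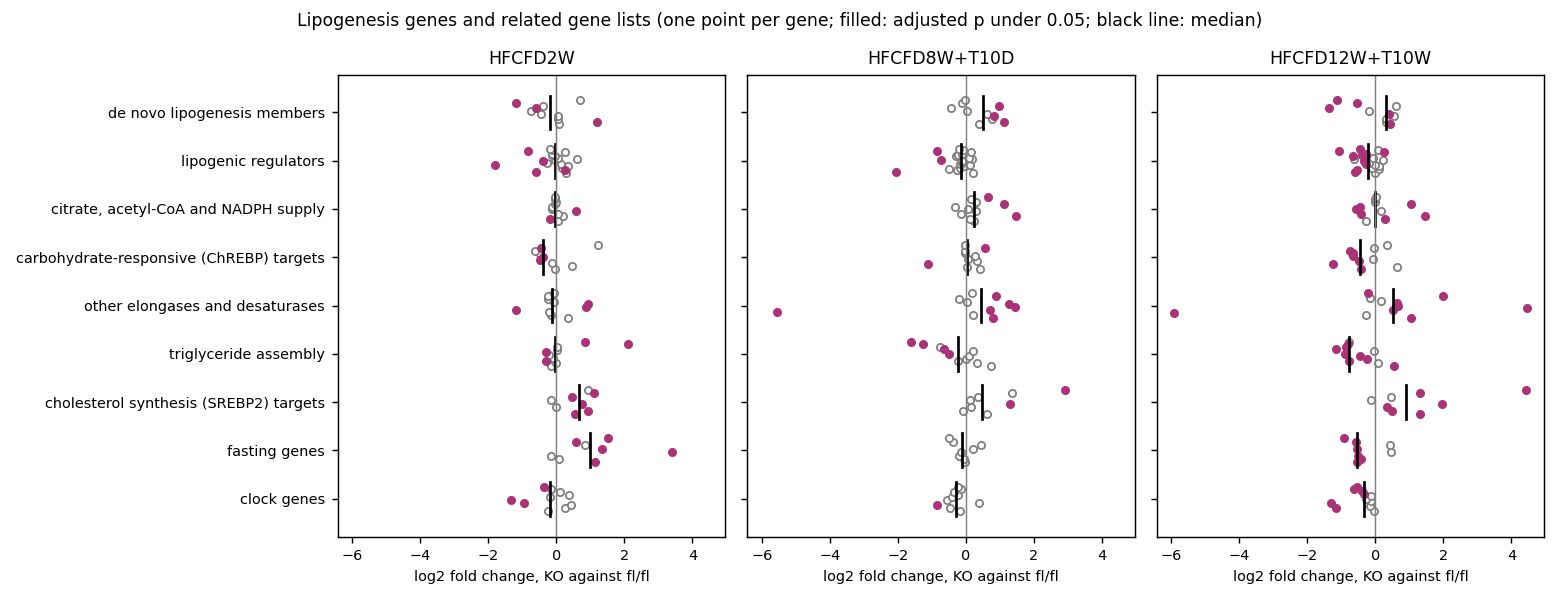
Log2 fold change of each tested gene in the 10-gene set and 8 related gene lists, by experiment, with 1 point per gene, filled where the adjusted p was under 0.05, and a black line at the list median. The fasting list lay mostly above 0 in HFCFD2W and mostly below 0 in HFCFD12W+T10W, and the triglyceride list had a median of -0.77 in HFCFD12W+T10W.

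Whether the knockout effect itself differed between experiments was tested in 1 model of all 30 libraries and 12964 genes. The effect on Srebf1 was 1.06 ± 0.34 (SE) higher on the log2 scale in HFCFD8W+T10D than in HFCFD2W (adjusted p = 0.0383) and that on Scd1 1.36 ± 0.42 higher (adjusted p = 0.0356), 2 of 10 genes, where 4.45% of all genes passed as higher and 11.2% in either direction. Neither call was stable: the Srebf1 difference failed without any of 8 of the 20 mice involved (adjusted p of up to 0.111) and the Scd1 difference without any of 9 (adjusted p of up to 0.0833). The effect on Mlxipl was 0.96 lower in HFCFD12W+T10W than in HFCFD8W+T10D (log2 difference -0.96, SE 0.241, adjusted p = 0.0117), the only gene of the 10 to pass there, against 5.51% of all genes as lower and 10.5% in either direction. It was also lower than in HFCFD2W (-0.81, SE 0.242, adjusted p = 0.0122), and so was that on Thrsp (-1.85, SE 0.454, adjusted p = 0.0028), 2 of 10 against 17.3% of all genes as lower and 30.7% in either direction. Both Mlxipl calls were lost on library totals (adjusted p = 0.0914 and 0.223), while the Thrsp call was kept. Acly, Acaca, Acacb, Fasn, Elovl6 and Me1 passed in none of the 3 differences in edgeR's test. Fasn (1.09, SE 0.475), Me1 (0.77, SE 0.370) and Acly (0.74, SE 0.338) had unadjusted p-values under 0.05 for HFCFD8W+T10D against HFCFD2W, and adjusted ones of 0.141, 0.184 and 0.163.

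Among the Cebpa fl/fl livers alone, Srebf1, Scd1, Fasn, Acly and Acaca were lower in both longer-fed groups than in the 2-week group, and the other 5 genes did not pass. At HFCFD8W+T10D, 5 of 10 genes were lower and 0 higher, where 21.5% of all genes were lower and 43.6% differed in either direction. The differences were those of Srebf1 (log2 difference -2.08, SE 0.246, adjusted p = 1.88e-07), Scd1 (-1.93, SE 0.308), Fasn (-1.07, SE 0.339), Acly (-0.99, SE 0.241) and Acaca (-0.90, SE 0.187). The same 5 genes were lower in HFCFD12W+T10W than in HFCFD2W, where 19.4% of all genes were lower and 39.1% differed in either direction: Srebf1 by -2.05 (SE 0.246), Scd1 by -1.79 (SE 0.307), Fasn by -1.79 (SE 0.346), Acly by -1.42 (SE 0.244) and Acaca by -1.09 (SE 0.187). The 2 contrasts share the 2-week mice. Mean Srebf1 was 757.2 ± 135, 178.9 ± 63.4 and 183.0 ± 34.4 CPM (SD, n = 5) in HFCFD2W, HFCFD8W+T10D and HFCFD12W+T10W.

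Between the 2 tamoxifen-treated control groups 0 of 10 genes passed in edgeR's test or in DESeq2, 2 had an unadjusted p under 0.05 (Acacb and Fasn), and 11.4% of all genes differed. Mlxipl was 48.6 ± 4.67, 42.0 ± 10.1 and 41.5 ± 8.14 CPM across the 3 control groups and passed in none of these contrasts. Macrophage markers were higher in both longer-fed control groups than at 2 weeks, for 6 of 6 genes in each. Hepatocyte markers were lower for 5 of 8 in each, stellate markers higher for 6 and 1 of 6, and fasting genes higher for 4 and 6 of 8 (1 and 0 lower), at HFCFD8W+T10D and HFCFD12W+T10W. Over all genes, 43.6% and 39.1% differed in either direction from the 2-week controls, in the same order. Clock genes passed for 9 of 11 genes at HFCFD8W+T10D, with log2 differences from -4.61 to 4.94, for 6 of 11 at HFCFD12W+T10W, and for all 11 between the 2 tamoxifen-treated groups. The part of these differences in the lipogenic levels was not tested. Without Cebpa fl/fl replicate 4 of HFCFD2W the Fasn difference at HFCFD8W+T10D no longer passed (log2 difference -0.82, adjusted p = 0.0563).

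**Figure D4:**
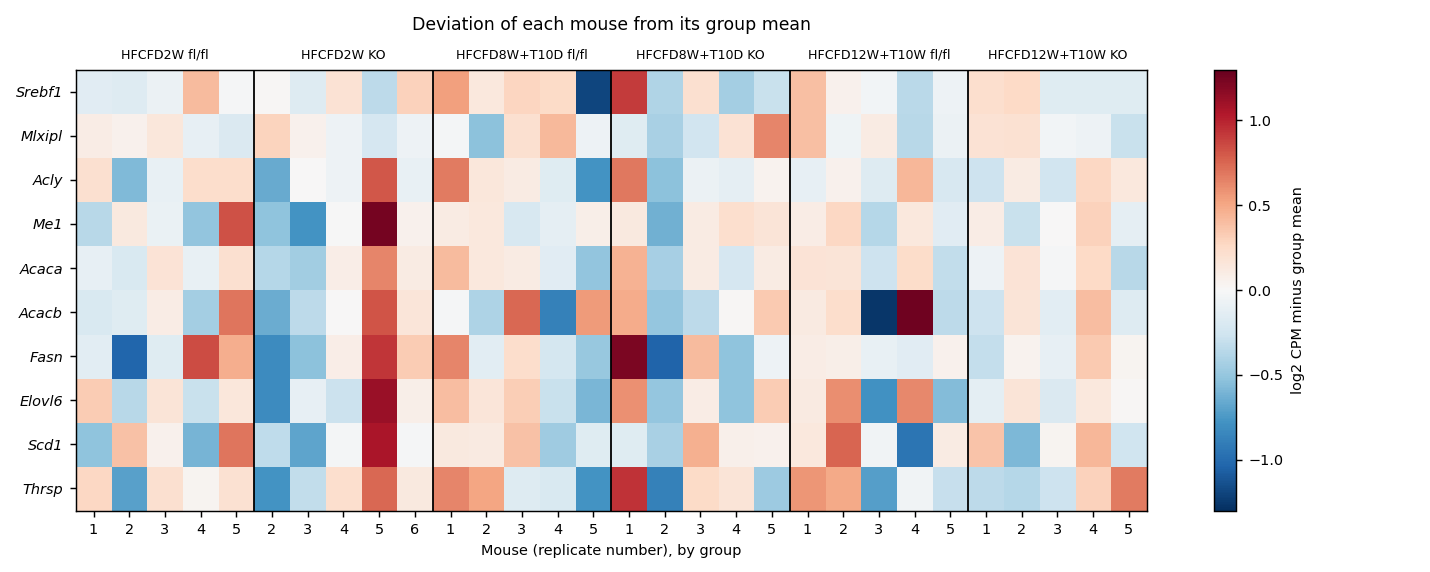
Deviation of each mouse's log2 CPM from its group mean (colour, log2 units) for the 10 genes (rows) in 30 mice (columns, by group and replicate number). The enzyme rows tend to share a colour within a mouse, as in HFCFD2W KO replicate 5, whereas the Mlxipl row does not.

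Within groups, the enzymes varied together from mouse to mouse, and the regulators did so less. Over the 30 mice, with each group's mean removed, Pearson's r between pairs of the 7 enzymes and Thrsp had a median of 0.58 over 28 pairs (range 0.14 to 0.83), given as a description since all genes of a mouse share 1 library. Against the mean of the other 9 genes, r was 0.91 for Acaca, 0.82 for Elovl6, 0.79 for Acly, 0.75 for Fasn and Thrsp, and 0.66 for Me1. It was 0.49 for Acacb, 0.40 for Scd1, 0.32 for Srebf1 and -0.21 for Mlxipl. The 9 pairs with Mlxipl ran from -0.30 to 0.09.

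The relation of each regulator to each of the 8 genes was tested by permutation within groups, 16 pairs in all, and none passed after Benjamini-Hochberg adjustment. The strongest was Srebf1 with Fasn (n = 30, Pearson's r = 0.55, permutation p = 0.00457, adjusted p = 0.0731; Spearman's rho = 0.56, permutation p = 0.0051, adjusted p = 0.0816). It was 0.43 without the 2 mice farthest from the median of Srebf1 and ran from -0.02 to 0.80 within the 3 experiments. Srebf1 with Scd1 had r = 0.03 (permutation p = 0.852).

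The 5 genes outside the set whose deviations most resembled the mean of the 10, among 12447 genes with at least 1 CPM on average, were Acat2 (r = 0.79), Sc5d (0.78), Pklr (0.77), Cyb5b (0.74) and Nsdhl (0.74). Acat2, Sc5d and Nsdhl encode enzymes of sterol synthesis, and Pklr encodes liver pyruvate kinase, a classic ChREBP target. The similarity covers 30 mice and was not tested.

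Single mice stood out in both directions. In HFCFD8W+T10D, Cebpa ΔHep,ERT2 replicate 1 was the highest of its group for 6 of the 8 enzyme and Thrsp genes and for Srebf1 (288.1 CPM), and replicate 2 was the lowest for 7 of 8. In the same experiment Cebpa fl/fl replicate 1 was highest for 5 of 8 and replicate 5 lowest for 5 of 8. The Fasn difference of that experiment fell from a log2 fold change of 0.63 to 0.20 (adjusted p = 0.708) without knockout replicate 1.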

How the data were processed

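Liver RNA of 30 mice (5 in each of 6 groups) had been sequenced as stranded poly(A) libraries. According to the submitters' processing notes, the tools named were Trimmomatic 0.36, STAR 2.5.1, Picard 1.84, RSEM 1.2.22 and DESeq2, with genome build mm10. The authors deposited RSEM expected counts per gene (a table for the series and a file for each library, which differed by 0 over 55450 genes) and, in the library files, TPM values. All 55450 gene identifiers matched GENCODE M21. CPM and RPKM tables were not used.

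Expected counts were rounded to whole numbers. Genes were kept by edgeR's filterByExpr (edgeR 4.0.16, R 4.3.3), scaled by TMM and tested by quasi-likelihood F test within each experiment (11068, 11992 and 12463 genes) or over all 30 libraries (12964 genes) for contrasts between experiments. P-values were Benjamini-Hochberg adjusted over all genes tested. The printed CPM share 1 scaling over 30 libraries, so their ratios can differ slightly from the fitted folds. On simulated counts for HFCFD2W, 86 of 100 genes changed by 1 and 96 of 100 changed by 2 on the log2 scale were recovered. For HFCFD8W+T10D these were 76 and 89, for HFCFD12W+T10W 86 and 96, and for the difference in genotype effect between HFCFD12W+T10W and HFCFD8W+T10D 56 and 82 of 100. Permutation p-values used 100000 permutations, two-sided. Depth was 7996128 to 10257366 counts a library; among the 10 genes the lowest count was 108.

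The genes named were the 10 members and Cebpa in every comparison, genes of 8 pathway and 7 marker lists past an adjusted p of 0.05 with a fold over 2, and the 5 genes most like the members. A gene of the cholesterol list past that threshold is counted with its list but not reported here. The members and lists were chosen with earlier results of these data known. Alternatives were DESeq2 (1.42.0), upper quartile scaling, no filter, a joint model, a replicate block, leaving out each mouse, and, chosen after seeing the data, library totals without scaling factors. Promoters came from RefSeq (GRCm38.p6), and figures were drawn with matplotlib 3.10.9.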

Additional observations from a re-analysis of the deposited data

Results flagged for a closer look

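Each group of 5 mice was read for a single value far from the rest by Dixon's test, for the 10 lipogenic genes in 6 groups. Of the 60 sets of values 4 stood apart, where chance alone gives about 1 in 20. Me1 in HFCFD8W+T10D knockout replicate 2 was 95.49 CPM, the next lowest being 158.5 CPM. Srebf1 was 993.3 CPM in HFCFD2W Cebpa fl/fl replicate 4, with 741.5 CPM next, and 72.41 CPM in HFCFD8W+T10D Cebpa fl/fl replicate 5, with 182.7 CPM next. Thrsp was 291.9 CPM in HFCFD2W Cebpa fl/fl replicate 2, with 490.4 CPM next.

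The knockout effect passed as different between experiments for 4 genes, tested as interactions in edgeR over all 30 libraries. The log2 difference was 1.06 for Srebf1 and 1.36 for Scd1 between HFCFD8W+T10D and HFCFD2W, and -0.96 for Mlxipl between HFCFD12W+T10W and HFCFD8W+T10D. Between HFCFD12W+T10W and HFCFD2W it was -0.81 for Mlxipl and -1.85 for Thrsp. Over all genes 11.2%, 10.5% and 30.7% passed in either direction in these contrasts, in the order given. The Srebf1 and Scd1 calls were each lost on leaving out single mice, and both Mlxipl calls were lost on library totals. Cre strain, diet time, tamoxifen and batch cannot be told apart in these differences.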

How the results depend on the processing

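Counts are of the 10 genes. With a fold over 2 required, the lower count of HFCFD2W was 1, the higher count of HFCFD8W+T10D 1 and that of HFCFD12W+T10W 0. On library totals (chosen after seeing the data) the higher count of HFCFD8W+T10D was 5, that of HFCFD12W+T10W was 5, and the genotype differences passing were 0 lower for HFCFD12W+T10W against HFCFD8W+T10D, and 4 higher and 1 lower against HFCFD2W. Over all genes, library totals gave 16.9% and 56.6% higher in the 2 experiments. For the differences they gave 1.26% lower, and 31.8% higher and 4.76% lower. Upper quartile scaling gave 5 higher in HFCFD12W+T10W, against 31.6% of all genes. The joint model gave 1 lower in HFCFD8W+T10D and 0 higher in HFCFD12W+T10W. The signs that turned were those of genes that did not pass: Srebf1 (0.0835) and Thrsp (0.17) in HFCFD8W+T10D and Me1 (0.17) in HFCFD12W+T10W on library totals, and Thrsp (0.021) in HFCFD8W+T10D with upper quartile scaling. The cause was not tested. DESeq2 and the absence of a low-count filter turned no sign and moved none of these counts by over 1.5 times.

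Replicate numbers did not pair the mice: same-numbered mice of both genotypes correlated at -0.32 to 0.04 in HFCFD2W, -0.07 to 0.16 in HFCFD8W+T10D and -0.04 to 0.22 in HFCFD12W+T10W. The replicate block gave 4 higher in HFCFD12W+T10W and 2 higher for its effect against HFCFD2W, with log2 fold changes of -0.0188 for Acaca and -0.0220 for Elovl6 in HFCFD2W.

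Leaving out 1 mouse at a time gave 1 to 2 higher in HFCFD2W, 0 to 1 lower in HFCFD8W+T10D, and 1 to 5 higher in HFCFD12W+T10W. It gave 0 to 4 higher for the effect of HFCFD8W+T10D against HFCFD2W, 1 to 2 lower for HFCFD12W+T10W against HFCFD8W+T10D, 0 to 2 higher for HFCFD12W+T10W against HFCFD2W, and 0 to 1 lower between the longer-fed Cebpa fl/fl groups. Among the highest counts were those without HFCFD2W knockout replicate 2 (2 in HFCFD2W, with Thrsp at 0.84, adjusted p = 0.0232), without HFCFD2W knockout replicate 5 (4 and 2 for the effects against HFCFD2W) and without HFCFD12W+T10W Cebpa fl/fl replicate 4 (5 in HFCFD12W+T10W). The 1 lower in HFCFD8W+T10D was Mlxipl, without knockout replicate 5. In these fits the log2 fold change ran from -0.23 to 0.17 for Acly, -0.12 to 0.18 for Acaca and -0.37 to 0.21 for Elovl6 in HFCFD2W, and from -0.42 to 0.0166 for Srebf1, -0.32 to 0.16 for Thrsp and -0.0184 to 0.16 for Me1 in HFCFD8W+T10D, none of them called with all mice. The lowest count of a lipogenic gene was 108, and the part of depth in these calls was not tested.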
